A study of Macaca mulatta with 56 samples.

Results

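Potassium channel genes were taken from the table of brain transcripts as every row whose macaque symbol begins with KCN followed by a letter. The rule found 81 genes among 17807 rows. The libraries came from 14 old female rhesus macaques aged 19.4 to 23.2 years, each sampled in amygdala, hippocampus (HIP), occipital cortex (OC) and prefrontal cortex (PFC), giving 56 libraries of messenger RNA. In the HT group, 7 animals (numbers 36 to 42) carried capsules that released estradiol, with an average serum estradiol of 82.1 pg/mL. In the OvH group, 7 animals (numbers 30 to 35 and 43) carried empty capsules, with an average of 6.6 pg/mL. Every animal of both groups ate a Western-style diet, in which fat gave 36% and sugars 18.5% of the calories (13% and 6% in regular chow), and lost its ovaries and uterus about 6 weeks into it. The study lasted 30 months. No group kept its ovaries and none ate chow, so the design compares estradiol with its absence in ovariectomized animals on this diet only, and whole pulverized tissue was used, about 30 mg a sample.

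Potassium channels let potassium leave the cell down its gradient, which sets the resting potential of a neuron, ends the action potential and spaces the spikes of a train. The voltage-gated families (Kv) open on depolarization, the inward rectifiers (Kir) and the K2P leak channels hold the membrane near rest, and further families open with calcium or sodium. Pore subunits assemble with each other and with accessory subunits, such as the KChIP proteins of Kv4 channels and the KCNE proteins of Kv7 and other channels, so the mix of transcripts in a region bears on which channels can form there.

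The table limits which members can be read in which region. Under many identifiers the amygdala columns hold another transcript than the columns of the other 3 regions: MBP, the main myelin protein, averaged 608200 normalized counts in amygdala and 0 in the other regions. A member was therefore used outside the amygdala only where its mean log2(value + 1) over the other regions lay within 2 of that in amygdala, which held for 69 of the 81. The 12 without a matching level were KCNAB1, KCNAB3, KCND2, KCNH4, KCNIP3, KCNJ1, KCNJ2, KCNJ3, KCNK5, KCNK18, KCNRG and KCNS1. Just inside the limit lay KCNK13, 1.87 lower outside the amygdala, and KCNC1, 1.79 higher; just outside it lay KCNH4 at 2.22 higher and KCNAB3 at 2.27 higher. Rows paired with an identifier 50 places away matched in 33.61% of cases, against 75.93% of all rows in place, so a matching level does not prove a name, and some of the 69 may carry another transcript outside the amygdala. The symbol list names 10 further genes of the pattern that had no row here. KCNRG is named as a regulator of potassium channels and is not a channel subunit.

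Sequencing depth was 34.63 to 93.34 M reads per library (median 59.88 M, where M is mega). Values are upper-quartile normalized counts, and because no transcript lengths were used, levels are compared for 1 gene between samples and never between genes. Markers of neurons, astrocytes, oligodendrocytes and microglia were all detected in every region (no list member used had a mean under 1), as brain tissue would hold. In bulk tissue fewer cells of a type and less RNA per cell cannot be told apart. Several libraries stood apart. In hippocampus, those of animals 40 (HT) and 33 (OvH) held choroid plexus RNA: the summed level of 3 choroid markers reached 1465000 in an HT library and 1328000 in an OvH library, against medians of 3906 in HT and 3638 in OvH hippocampus. The hippocampus libraries of OvH animals 30 and 43 were far above the others for several members, and the libraries of animals 40 (HT) and 32 (OvH) were low for many members in more than 1 region, as described below.

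Estradiol treatment was first compared in the amygdala, where all members can be read by name. Of 80 members tested, 1 passed: KCNE2, an accessory subunit that modifies the gating of KCNQ, KCNH and other channel pores, was higher in HT. KCNE2 had 416, 282, 289, 190, 340, 473 and 445 normalized counts in HT animals 36 to 42, against 180, 216, 259, 185, 114, 93.4 and 129 in OvH animals 30 to 35 and 43. Every HT animal was above the OvH median of 180, and the groups overlapped through HT animal 39 and OvH animals 31 and 32. The mean was 348 ± 102 in HT and 168 ± 59.2 in OvH (SD, n = 7 each), a log2 difference of 1.07 (SE 0.26, limma adjusted p = 0.0224). In this comparison 6.89% of all 16129 rows tested were called, so 1 of 80 members is a smaller share than among all rows.

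KCNE2 is also made by the choroid plexus epithelium, so the choroid plexus list was read beside it. All 5 measured markers had negative differences in amygdala (median -0.43 on the log2 scale, none called), and their summed level was 256 to 4933 in HT (median 1316) and 191 to 25400 in OvH (median 1009), so the median sum was higher in HT while the highest sum was in OvH. The transthyretin gene TTR, the most abundant choroid transcript, peaked at 24980 in OvH animal 35, whose KCNE2 was the lowest of the 14 at 93.4. The member KCNJ13, also a choroid plexus gene, peaked instead in HT animal 42, whose KCNE2 was among the highest. The part of choroid plexus RNA in the KCNE2 difference was not tested. With each animal left out in turn, the KCNE2 difference stayed between 0.94 and 1.201, while the call was less stable. Without HT animal 36 or 42, or OvH animal 35 or 43, KCNE2 missed the threshold. The limma adjusted p-values were then 0.0562, 0.0508, 0.0524 and 0.0544, in that order. With a myelin score as a covariate the KCNE2 difference was 1.10 with an adjusted p of 0.107.

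**Figure D1:**
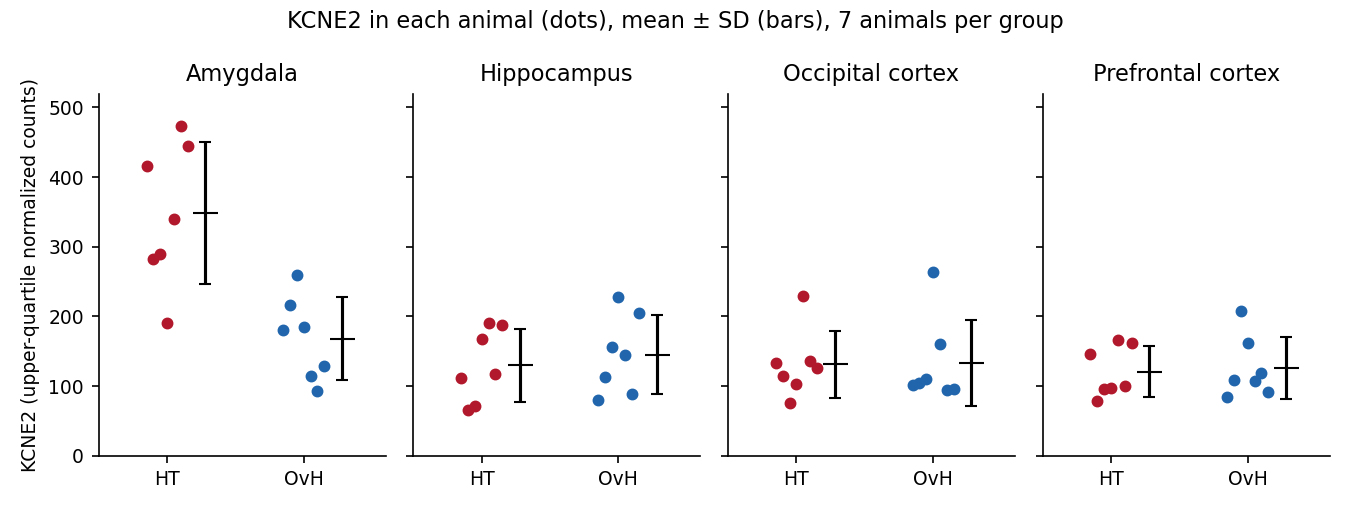
KCNE2 in upper-quartile normalized counts (vertical axis, from 0) in each animal of the HT (red) and OvH (blue) groups, by region, with the mean and SD of 7 animals beside the dots. In amygdala the HT mean was 348 and the OvH mean 168, while in the other 3 regions the groups lay over each other.

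Outside the amygdala the KCNE2 difference lay within its error. It was -0.17 (SE 0.32) in hippocampus, 0.01 (SE 0.27) in occipital cortex and -0.05 (SE 0.24) in the prefrontal cortex. The test of the difference itself, the HT effect in amygdala minus the mean effect in the other regions of the same animals, gave 1.14 (SE 0.28) with a limma adjusted p of 0.0588, which misses the threshold, and in that test 0% of 13468 rows were called. No row did better than 0.0588, while 3081 rows and 10 of 69 members had an unadjusted p under 0.05. Leaving out 1 animal moved the number of members called there between 0 and 6: it was 2 without animal 30 or 40, 1 without 31 or 39, and 6 without 32. The calls over all rows moved with it, to 6.45% without animal 30, 7.26% without 40, 5.8% without 31, 8.72% without 39 and 6.29% without 32.

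The remaining amygdala members had mostly negative differences, and none of them passed. There were 48 members with a negative and 32 with a positive difference, and the members' median was -0.11, against 0.01 over all rows. An unadjusted p under 0.05 was found for 8.75% of members and 21.5% of all rows. The 6 uncalled members in that range, chosen after their values were seen, were KCNG1 (-0.70), KCNG3 (-0.65), KCNJ4 (-0.64), KCNA4 (-0.40), KCNMA1 (-0.39) and KCNH8 (0.81).

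KCNG1 encodes a silent subunit that forms channels only together with Kv2 pores. It had 602, 257, 726, 535, 616, 770 and 527 normalized counts in HT animals 36 to 42, against 951, 526, 1167, 936, 576, 1148 and 1235 in OvH animals 30 to 35 and 43. All HT animals were below the OvH median of 951, and the groups overlapped through OvH animals 31 and 34. Its mean was 576 ± 168 in HT and 934 ± 285 in OvH (SD, n = 7 each; limma adjusted p = 0.116), and it passed with libraries scaled to equal totals (adjusted p = 0.0356) and with DESeq2 (adjusted p = 0.0367). KCNG3, another silent subunit, averaged 86.9 ± 19.5 in HT and 146 ± 62.1 in OvH, and again every HT animal was below the OvH median of 147. KCNJ4, a strong inward rectifier of forebrain neurons, averaged 990 ± 281 in HT and 1575 ± 549 in OvH. KCNMA1 is the pore of the large-conductance calcium-activated BK channel; it ranged from 1635 to 2601 in HT and from 1511 to 3533 in OvH, and the lowest OvH library was that of animal 32. KCNH8, a Kv12 pore subunit, went the other way, with 806 ± 385 in HT and 492 ± 274 in OvH (limma adjusted p = 0.188).

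By family, the Kv1 subunits leaned furthest: 8 of 9 had a negative difference in amygdala, with a median of -0.40 and none called. The Kv2 and silent subunits had 7 of 8 negative (median -0.27), and the Kv3 and Kv4 families with the KChIPs were split, 6 of 11 negative in all. Kv7 and KCNE subunits had 5 of 9 negative (median -0.05) and held the only call. The EAG, ELK and ERG subunits had 4 of 8 negative and the inward rectifiers 6 of 12. K2P channels had 6 of 11 negative, and the calcium- and sodium-activated channels 5 of 11 (median 0.17). The signs depend on the scaling: HT amygdala libraries had larger normalized totals than OvH ones (71.1 ± 4.46 against 61.4 ± 4.08 M, exact two-sided permutation p = 0.00291), and with equal totals the median of all rows moved to -0.20 and that of the members to -0.32, with 13 of 80 positive. In that scaling 618 rows were called higher and 1016 lower, against 994 higher and 118 lower in the main one.

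Marker lists shifted in the same comparison. Myelin markers had mostly positive differences in amygdala (11 of 12 rows, which cover 11 genes, median 0.48). Their summed levels were 793500 to 1617000 in HT and 354100 to 1254000 in OvH. Called higher in HT were 3 rows: MBP, GJB1 and a row of MOBP (1.46). The other MOBP row was at 0.31 and was not called (limma adjusted p = 0.643). Pan-neuronal markers had mostly negative ones (11 of 13, median -0.32, none called), with sums of 560200 to 781800 in HT and 591800 to 877700 in OvH. Meningeal markers were 5 of 5 positive (median 0.63), with no call. Vessel wall markers were 4 of 5 negative (median -0.31), endothelial ones 6 of 7 (median -0.29) and those of oligodendrocyte precursors 5 of 5 (median -0.22), again with no call. Among the others, the interneuron peptide VIP and the microglial gene AIF1 were called higher. Their lists did not move as a whole: 4 of 7 interneuron markers were negative (median -0.29), and 4 of 7 microglial ones (median -0.001). The part of these shifts in the members' values was not tested. A myelin covariate was tried, but its markers themselves differed between HT and OvH, so it cannot separate myelin from treatment. With that covariate 0 of 80 members were called, beside 0.143% of all 16129 rows (6.89% without it). Of 15 channel partners outside the symbol pattern, such as the Kv4 partner DPP6 (-0.62) and DPP10 (-0.25), none was called (median -0.31). None of 14 genes for sodium-potassium pumps, chloride cotransporters and HCN channels was called either.

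**Figure D2:**
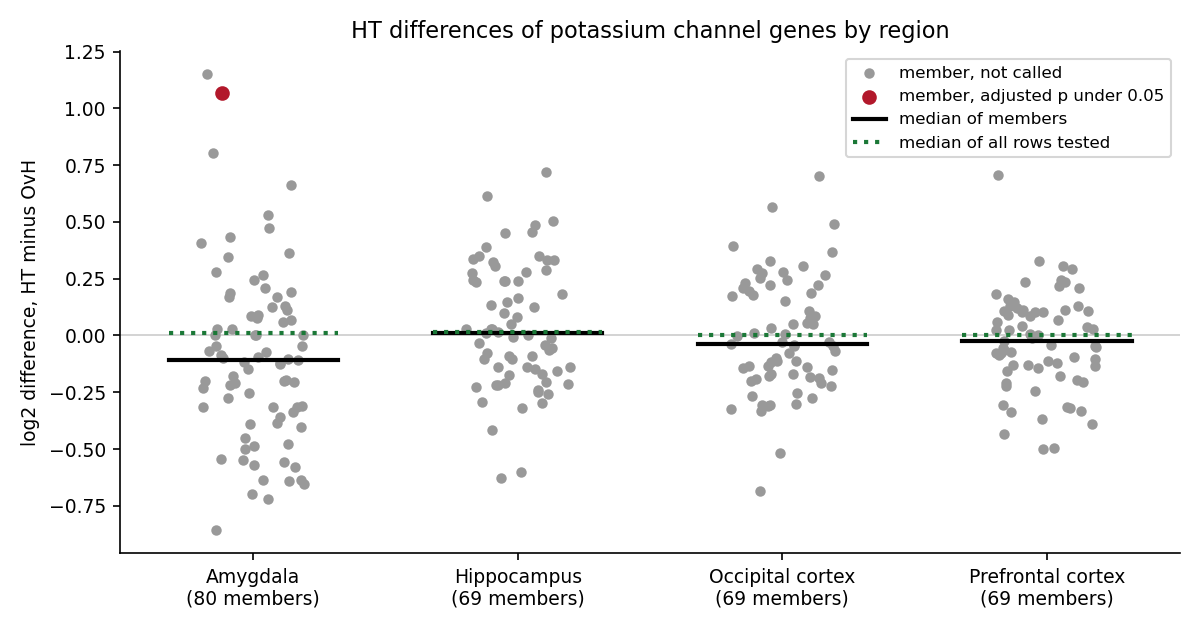
Log2 difference of HT minus OvH (vertical axis) for every member tested in each region, 80 in amygdala and 69 in each other region; black lines are the members' medians and dotted green lines the medians of all rows tested. The amygdala spread is the widest, from -0.86 to 1.15, and KCNE2 (red) is the only member called.

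Some of the largest amygdala differences belong to members that a few animals decide. KCNJ13, an inward rectifier of transporting epithelia such as the choroid plexus, had the largest difference of all at 1.15 (SE 1.08), because HT animal 42 held 1338 normalized counts and the others 3.22 to 222. KCNA3, a Kv1 pore known from lymphocytes and microglia as well as neurons, had the most negative one at -0.86 (SE 0.47, limma adjusted p = 0.311). It ranged from 44.2 to 184 in HT and from 32.4 to 340 in OvH, and the lowest of all was again OvH animal 32.

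Animal 32 had a large hold on the amygdala result. Without it, 14 of 80 members were called, 3 higher in HT (KCNE2 1.18, KCNH8 0.999, KCNN2 0.59) and 11 lower (among them KCNA3 -1.29, KCNA6 -1.06, KCND3 -1.03, KCNA1 -0.99, KCNQ5 -0.96, KCNG3 -0.82, KCNRG -0.75, KCNJ3 -0.59, KCNMA1 -0.53 and KCNC2 -0.44). That is 17.5% of members, beside 14.6% of all rows called without animal 32 (10.1% higher and 4.54% lower). Animal 40, an HT animal, was low in the same direction. With both left out, an alternative chosen after seeing the data, 7 members were called: KCNE2 (1.18) higher, and KCNA3 (-1.07), KCNG3 (-0.89), KCNA1 (-0.81), KCND3 (-0.77), KCNQ5 (-0.76) and KCNMA1 (-0.48) lower in HT. Those 7 were all among the 14, and they are 8.75% of members, beside 12.2% of all rows. No other single animal raised the count above 2, which was reached without animal 31 (adding KCNJ4 at -0.85) or without animal 37 (adding KCNN1 at 0.56).

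The low values of animals 40 and 32 were visible across regions and for members of several families. KCNA2, the Kv1.2 pore of axons, is the clearest case. In amygdala it had 66.3 and 86.3 normalized counts in animals 40 and 32, and 151 to 980 in the other 12. In prefrontal cortex it had 185 in animal 40 and 99.4 in animal 32, against 438 to 4289 in the others, and in occipital cortex 178 and 308, against 318 to 2665. In hippocampus animal 40 had 135 and animals 32 and 33 had 39.0 and 50.2, while animals 30 and 43 held 5341 and 3213. The spread within either treatment was thus far larger than any difference between them, whose SE in prefrontal cortex was 0.85 on the log2 scale.

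KCND3, the Kv4.3 pore of A-type currents, followed the same animals. It had 186 and 109 normalized counts in amygdala of animals 40 and 32, against 398 to 1324 in the other 12. In prefrontal cortex the pair had 239 and 221, against 685 to 2567. Among members with a mean of at least 100, both animals were among the lowest 2 of 14 for 15 of 71 in amygdala, 21 of 57 in prefrontal cortex, 5 of 64 in hippocampus and 4 of 57 in occipital cortex. Genes shared by the amygdala and prefrontal sets included KCNA2, KCNA3, KCNA6, KCNC2, KCND3, KCNMA1, KCNN3, KCNQ3, KCNQ5 and KCNT2. In occipital cortex animal 40 alone was the lowest library for 25 of 57 members. These counts were not made over all rows. Over all rows with a matching level, amygdala and prefrontal deviations from group means correlated at 0.787 in animal 32, the highest of the 14. In animal 40 they correlated at 0.594.

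The pan-neuronal sum of these animals differed by region. It was 723600 in animal 40 and 799600 in animal 32 in amygdala, and 672800 and 642100 in the prefrontal cortex, all inside the range of the other animals of their groups. In hippocampus it was 431700 in animal 40, the lowest of the 14 libraries, and 726400 in animal 32. In occipital cortex the sums of the whole groups ran from 600100 to 793400 in HT and from 663200 to 770700 in OvH. Depth was low to middling, 49.2 and 51.3 M reads in amygdala and 39.1 and 50.7 M in prefrontal cortex. RNA integrity scores are not given in the labels, and their part, like that of neuronal content, was not tested. A low library was also not low throughout: KCNC1 in amygdala was highest in animal 32 at 2282, and KCNN2 was highest there at 1883.

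**Figure D3:**
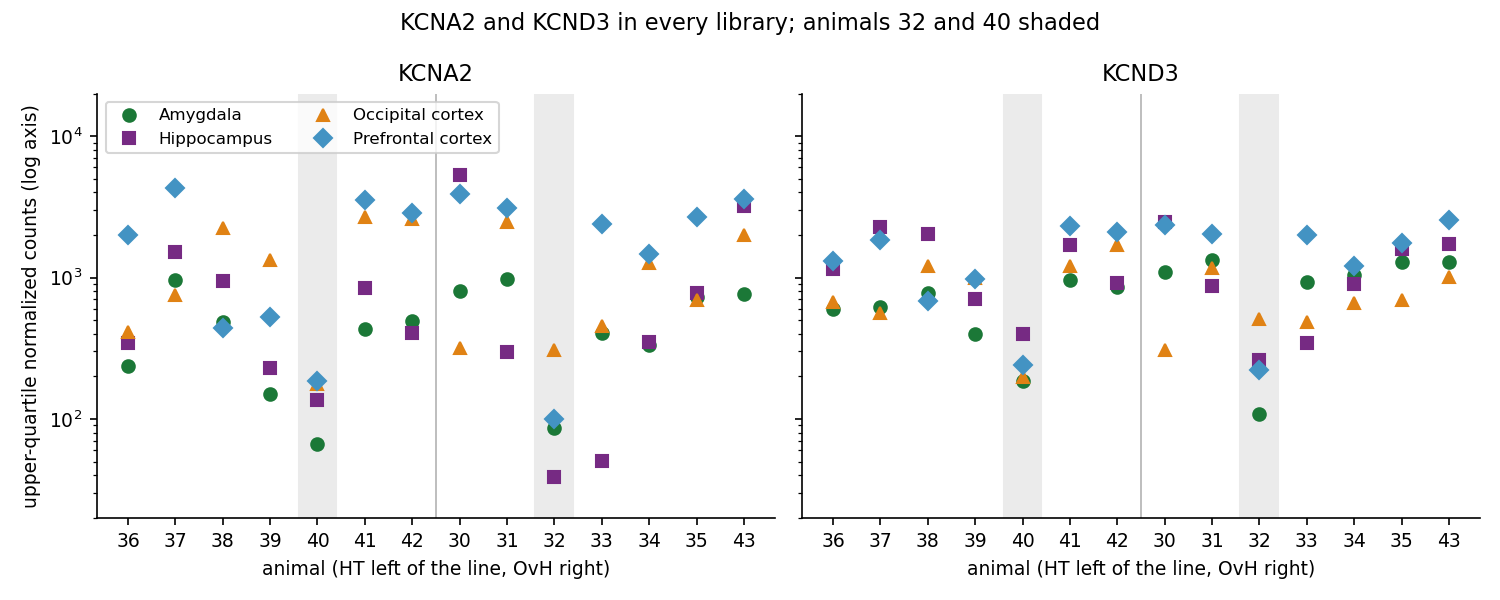
KCNA2 and KCND3 in upper-quartile normalized counts (log axis) in every library, by animal, with HT animals left and OvH animals right of the line and the 4 regions as symbols. Animals 40 and 32 (shaded) are the lowest in amygdala and prefrontal cortex for both genes, and among hippocampus libraries those of OvH animals 30 and 43 are the highest for KCNA2.

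In hippocampus, occipital cortex and prefrontal cortex no member passed in the HT comparison. The background was the same: 0% of the 16317, 16138 and 16286 rows tested were called by limma, and edgeR and DESeq2 called no member there either. An unadjusted p under 0.05 was found for 335, 303 and 603 rows and for 1, 1 and 2 of 69 members. Among these were KCNA5 in occipital cortex (0.70), and KCNK12 (-0.50, SE 0.18) and KCNJ10 (0.31, SE 0.13) in prefrontal cortex. KCNJ10 encodes Kir4.1, which clears potassium into astrocytes. Averaged over the 3 regions of each animal, 0 of 69 members were called, against 0% of 16354 rows (517 with an unadjusted p under 0.05, 3 of them members), and KCNJ10 stood at 0.22.

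The well-known neuronal and glial members fixed for these comparisons lay in narrow ranges outside the amygdala. Over 15 of them that could be read, the differences ran from -0.42 (KCNIP4) to 0.49 (KCNA1) in hippocampus, from -0.17 (KCNMB4) to 0.37 (KCNA2) in occipital cortex and from -0.50 (KCNA2) to 0.31 (KCNJ10) in prefrontal cortex. In amygdala, 17 of them ran from -0.64 (KCNA2, SE 0.58) to 0.43 (KCNN2, SE 0.22). Several sat close to 0 with errors that still leave room for a change: KCNQ3, a pore of the neuronal M-current, was at -0.05 (SE 0.33) and KCND2, the Kv4.2 pore, at 0.00 (SE 0.32). KCNJ10 was tighter, at 0.00 (SE 0.12). KCNK1, an abundant K2P channel, stood at 0.28 (SE 0.16), with 5704 ± 1000 in HT and 4775 ± 1230 in OvH.

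Many more members were called between regions than between treatments. In 42 libraries with the animal as a block, 15 of 69 members were higher and 28 lower in hippocampus than in prefrontal cortex, where 20.9% of all 16354 rows were called higher and 22.6% lower. With libraries scaled to equal totals, 2676 rows were higher and 4429 lower in that contrast, against 3412 and 3693 in the main scaling, and 15 members were higher and 29 lower. Of the 46 members whose levels matched within 1, 10 were higher and 14 lower than in prefrontal cortex. Against occipital cortex, 25 members were higher and 19 lower in hippocampus, with a background of 28.1% higher and 22.6% lower. Among the 46, 21 were higher and 9 lower. The background over rows matching within 1 was not computed for either contrast, so the counts of the 46 have no like share beside them. Between the cortices, 5 members were higher and 30 lower in occipital than in prefrontal cortex, with 19.7% of rows higher and 28.2% lower, and the members' median was -0.32 against -0.06 over all rows. Of 69 members, 11 differed in no pair of regions (15.9%, and 26.6% of all rows), KCNE2, KCNJ10 and KCNAB2 among them, and 15 differed in all 3 pairs (21.7%, and 12% of all rows). Hippocampus was above both cortices for 12 members (17.4%, and 13% of all rows), prefrontal cortex above the other regions for 12 (17.4%, and 9.91%) and occipital cortex for 4 (5.8%, and 11.6%). Hippocampus was below both cortices for 16 (23.2%, and 11.3%), occipital cortex below the other regions for 18 (26.1%, and 16.5%) and prefrontal cortex for 2 (2.9%, and 6.4%). Of the lists outside the members, 4 of 7 astrocyte and 7 of 9 myelin markers were higher in hippocampus than in prefrontal cortex. So were 6 of 6 microglial ones, while 5 of 12 pan-neuronal markers were lower and 1 higher. The 9 myelin rows cover 8 genes, since MOBP holds 2 rows, of which 1 was called in that contrast. Against occipital cortex, 3 of 7 astrocyte, 0 of 9 myelin and 6 of 6 microglial markers were higher in hippocampus, and 7 of 12 pan-neuronal ones were lower and 2 higher. Between occipital and prefrontal cortex, 2 astrocyte markers were higher and 3 lower, 3 myelin markers were higher, 3 microglial ones lower, and 4 pan-neuronal ones higher and 2 lower. The part of these marker differences in the members' regional differences was not tested.

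**Figure D4:**
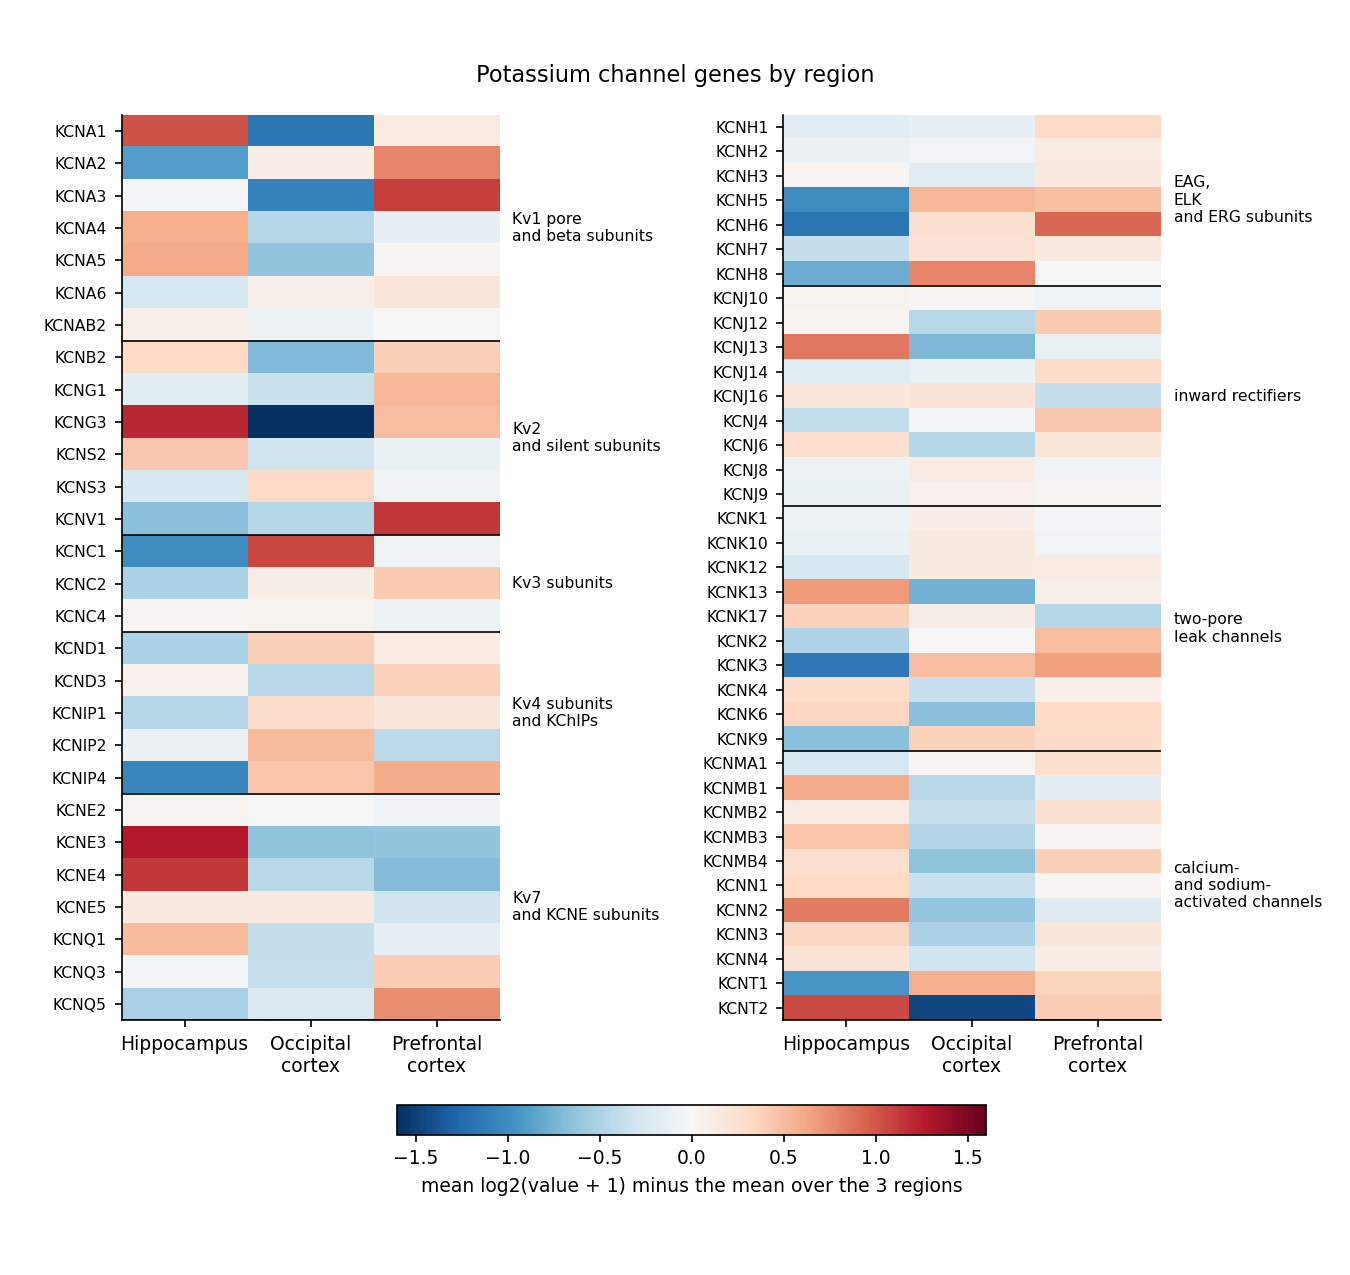
Mean log2(value + 1) of members with a matching level in each of 3 regions minus the member's mean over them (colour scale, red above and blue below), grouped by family. The widest ranges over the 3 regions are those of KCNG3 (2.90) and KCNT2 (2.51), both lowest in occipital cortex.

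Fast-spiking pores of the Kv3 family, which let neurons fire at high rates, were lower in hippocampus. KCNC1 (Kv3.1) had 1354 to 4251 normalized counts in hippocampus (median 1904), 5710 to 11730 in occipital cortex (median 8609) and 2260 to 5525 in prefrontal cortex (median 3889). Every occipital library was above every library of the other regions. The log2 difference was -2.07 (SE 0.14, limma adjusted p = 1.75e-13) for hippocampus over occipital cortex and 1.13 (SE 0.14, adjusted p = 1.24e-07) for occipital over prefrontal cortex. KCNC2 was also lower in hippocampus than in either cortex, with log2 differences of -0.60 from occipital and -0.93 from prefrontal cortex, whereas KCNC4 showed no call in any pair. Parvalbumin neurons are known to carry Kv3 channels. Of 6 interneuron markers, 4 (GAD1, GAD2, SLC32A1 and VIP) were lower in hippocampus than in either cortex. SST was higher there than in occipital cortex (0.89) and PVALB than in prefrontal cortex (0.35), and neither was called against the other cortex. PVALB averaged 3436 ± 633 in HT and 3418 ± 1110 in OvH hippocampus, 3241 ± 618 and 3306 ± 574 in occipital cortex, and 2663 ± 192 and 2568 ± 190 in the prefrontal cortex (SD, n = 7 each).

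Kv4 pores carry the A-type current, and KChIP subunits are their calcium-binding partners. KCNIP2 averaged 12420 ± 1970 normalized counts in hippocampus, 18980 ± 3930 in occipital cortex and 9912 ± 1830 in the prefrontal cortex (SD, n = 14 each), and all 3 pairs were called. KCNIP1 and KCNIP4 were lower in hippocampus than in either cortex. For KCNIP4 the hippocampal values were 389 to 5493 with a median of 753, and the prefrontal ones 1695 to 4025 with a median of 2894 (log2 difference -1.64, SE 0.24). The upper end in hippocampus is not typical, since animals 30 and 43 stood apart there, and the call held without their hippocampus libraries. DPP10, a further Kv4 partner, was lower in hippocampus than in prefrontal cortex (-1.11) and than in occipital cortex (-0.78).

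Among Kv1 genes, KCNA1 was highest in hippocampus and lowest in occipital cortex (median 130 in hippocampus, 23.5 in occipital and 63.1 in the prefrontal cortex), and KCNA4 and KCNA5 had the same order, with all 3 pairs called for each. KCNA1 ran opposite to KCNA2 in some libraries: the hippocampus of animal 30 had its lowest KCNA1 at 8.44 and the highest KCNA2 at 5341. KCNA3 had a median of 111 in hippocampus, 77.0 in occipital cortex and 440.3 in the prefrontal cortex, where it was highest. Its hippocampal excess over occipital cortex (1.07, limma adjusted p = 0.0104) missed the threshold without the hippocampus libraries of animals 30 and 43 (adjusted p = 0.0526).

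Silent subunits of the Kv2 group gave the largest single contrast. KCNG3 had 41.9 to 179 normalized counts in hippocampus (median 107), 2.48 to 32.2 in occipital cortex (median 14.2) and 38.6 to 83.4 in prefrontal cortex (median 66.4). No occipital library reached any library of the other regions. The difference was 2.90 (SE 0.24, limma adjusted p = 7.73e-12) for hippocampus over occipital cortex and -2.19 (SE 0.24, adjusted p = 7.62e-09) for occipital over prefrontal cortex. KCNV1, another silent subunit, was a prefrontal gene in these data: it had 226 to 3627 in hippocampus, 402 to 1107 in occipital cortex and 1138 to 3886 in prefrontal cortex, and the hippocampal 3627 belonged to animal 30. KCNB2, a Kv2 pore, averaged 603 ± 139 in hippocampus, 301 ± 95.5 in occipital cortex and 622 ± 116 in the prefrontal cortex (SD, n = 14 each), with occipital cortex below both others.

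**Figure D5:**
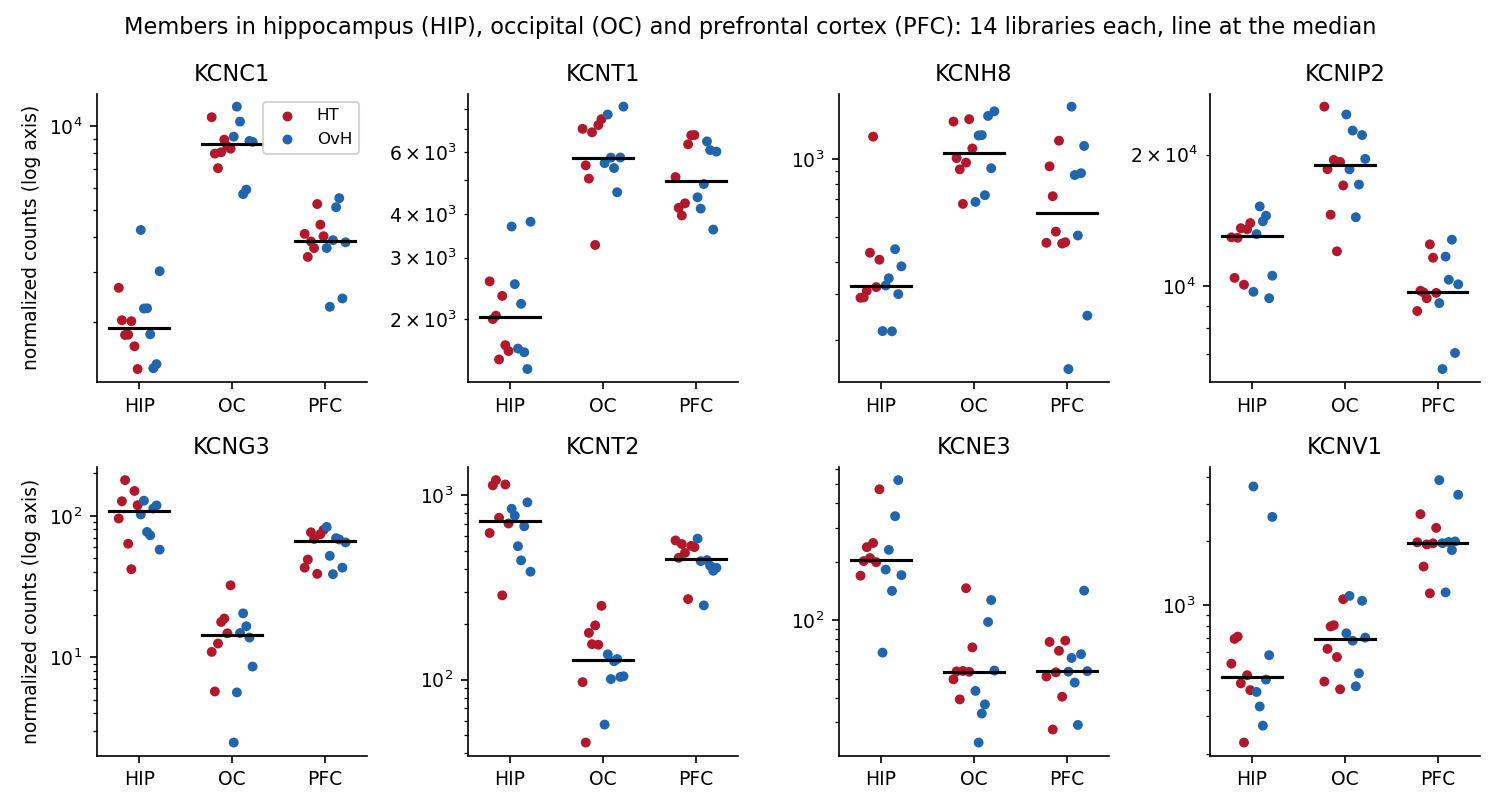
Normalized counts (log axis) of 8 members in all 14 libraries of hippocampus (HIP), occipital cortex (OC) and prefrontal cortex (PFC), HT animals in red and OvH animals in blue, with a line at the median. For KCNC1 every occipital dot lies above all others, for KCNG3 and KCNT2 every occipital dot lies below them, and in KCNV1 the 2 high hippocampal dots are OvH animals 30 and 43.

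Kv7 channels carry the M-current that restrains repetitive firing. KCNQ3 was highest in prefrontal cortex, as was KCNQ5 (median 1312 in hippocampus, 1562 in occipital and 3277 in the prefrontal cortex). Hippocampus was set apart by the accessory subunits KCNE3 and KCNE4, whereas KCNE2 and KCNE5 had no pair called. KCNE3 had 68.4 to 525 there (median 205), against 23.6 to 146 in occipital and 27.6 to 142 in prefrontal cortex, whose medians were 54.6 and 54.8. Its differences were 1.93 and 1.92 (SE 0.17 each), and for KCNE4 they were 1.58 and 1.83 (SE 0.19 each). KCNQ1, a pore that KCNE subunits modify, was higher in hippocampus too, by 0.89 over occipital and 0.64 over prefrontal cortex.

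Pores of the EAG, ELK and ERG group leaned away from hippocampus. All 7 had a negative difference from prefrontal cortex, of which 5 were called, and 4 of 7 were lower than in occipital cortex with none higher. KCNH6, an ERG pore, had the largest, -2.09 (SE 0.18, limma adjusted p = 1.55e-09): its median was 58.9 in hippocampus, 174 in occipital cortex and 300.0 in the prefrontal cortex. KCNH5 had medians of 240.1, 1087 and 1009 in the same order. KCNH8, with medians of 322, 1055 and 622 in that order, was highest in occipital cortex.

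Calcium- and sodium-activated channels gave contrasts in both directions. Both sodium-activated (Slack and Slick) pores differed, in opposite directions: KCNT1 had a median of 2023 in hippocampus, 5799 in occipital and 4985 in the prefrontal cortex, and KCNT2 one of 728 in hippocampus, 128 in occipital and 451 in the prefrontal cortex. For hippocampus over occipital cortex the log2 difference was -1.51 (SE 0.13) for KCNT1 and 2.51 (SE 0.20) for KCNT2. All occipital KCNT2 values (45.7 to 251) lay below all values of hippocampus (286 to 1206) and prefrontal cortex (253 to 581). KCNN2, the small-conductance SK2 channel of the afterhyperpolarization, was highest in hippocampus (1472 ± 449, against 523 ± 121 in occipital and 693 ± 145 in the prefrontal cortex; SD, n = 14 each). KCNN1 and KCNN3 were lowest in occipital cortex. KCNMB4, the neuronal beta subunit of BK channels, was also low there, with 3470 to 7254 in hippocampus, 2194 to 3470 in occipital cortex and 4582 to 7573 in prefrontal cortex, and the occipital and prefrontal values did not overlap. Its pore KCNMA1 moved less, and its only call was -0.54 (SE 0.15) for hippocampus over prefrontal cortex. In this family 8 of 11 members were higher in hippocampus than in occipital cortex, and 6 of 11 were lower in occipital than in prefrontal cortex with none higher.

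Inward rectifiers and K2P channels hold the membrane near rest. KCNJ10 had medians of 17610, 16880 and 16910 normalized counts in hippocampus, occipital and prefrontal cortex with no pair called, and KCNJ9, a G-protein-gated pore, had 2647, 3119 and 2893, likewise uncalled. KCNJ6, its frequent partner, averaged 278 ± 135 in hippocampus, 156 ± 46.6 in occipital cortex and 261 ± 118 in the prefrontal cortex, and the occipital cortex was below both others. KCNJ16, which joins with Kir4.1 in glia and epithelia, was lower in prefrontal than in occipital cortex and hippocampus. Among K2P channels, KCNK3 and KCNK9, the TASK channels, were both lower in hippocampus: KCNK3 had medians of 44.9, 165 and 201 and KCNK9 of 488, 1142 and 991 in hippocampus, occipital and prefrontal cortex. KCNK2 (TREK-1) was highest in prefrontal cortex. KCNK13, known from microglia, was highest in hippocampus (median 102, against 34.8 and 62.5 in the cortices), where 6 of 6 microglial markers were also higher than in either cortex. The part of microglial RNA in the KCNK13 difference was not tested, and KCNA3, also known from microglia, was highest in prefrontal cortex. KCNJ13 is a choroid plexus gene, as above. It was called higher in hippocampus than in occipital cortex (1.56, limma adjusted p = 0.0286), and the values behind it were 2788 in animal 40, 1689 in animal 33, the libraries with choroid plexus RNA, and 12.9 to 378 in the others. Without those 2 libraries the difference was 0.76 with an adjusted p of 0.192, and leaving out animal 33, 39 or 41 also ended the call.

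Genes that work with these channels were also compared between regions. Of 11 partners outside the symbol pattern, 1 was higher and 5 lower in hippocampus than in prefrontal cortex (20.9% and 22.6% of all rows). Against occipital cortex, 3 were higher and 5 lower in hippocampus (28.1% and 22.6% of all rows). In occipital against prefrontal cortex, 1 was higher and 3 lower (19.7% and 28.2% of all rows). ABCC9, a sulfonylurea receptor of ATP-sensitive channels in vessel walls, was lower in occipital cortex than in prefrontal cortex (-1.25) and hippocampus, and LGI1, a secreted partner of Kv1 complexes, was higher in hippocampus than in prefrontal cortex (0.53). Among 11 pumps, cotransporters and HCN channels, 1 was higher and 4 lower in hippocampus than in prefrontal cortex (20.9% and 22.6% of all rows). HCN2, HCN3 and HCN4 were among the lower ones (-0.43, -1.11 and -0.76 on the log2 scale). None of these HCN genes was called between hippocampus and occipital cortex. HCN3 (-0.82) and HCN4 (-0.63) were also lower in occipital than in prefrontal cortex.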

How the data were processed

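Messenger RNA was measured in 56 libraries, 7 HT and 7 OvH in each of 4 regions, grouped by the labels. Per the submitters' processing notes, the authors used FastQC 0.1.1.2, Trimmomatic, STAR 2.7.3a, the build Mmul_10 and edgeR 3.28.0; the counting program is not given in the sources used here. The deposited values are a signal of upper-quartile normalized read counts per Ensembl identifier. Whole reads were recovered by undoing each library's scaling (100.0% of values whole within 0.01 reads, 34.63 to 93.34 M (mega) reads per library). Symbols came from a reference list of macaque genes and covered 15123 of 17807 rows; the list names 91 genes of the pattern.

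Values were tested as log2(value + 1) in rows with a mean of at least 10 by limma 3.58.1 (R 4.3.3) with an intensity trend, two-sided, with Benjamini-Hochberg adjustment over all rows and a threshold of 0.05; p-values printed as limma adjusted p are from this fit. Fold changes on this scale understate the change of low genes. HT was compared with OvH in each region; regions were compared with the animal as a block over 42 libraries, since the labels take them from the same animals. Same-animal libraries of 2 regions deviated together in 76 of 84 pairs (correlation over 0.1, mean 0.377, range -0.233 to 0.787). Recovered reads were also tested with edgeR 4.0.16 and DESeq2 1.42.0, and other pseudocounts (0.5, 10), filters (none, 100), equal totals, a myelin covariate, a level match within 1 and each animal left out were tried. The fit was tested on simulated data. No 2 libraries of a group agreed within sampling noise (168 pairs, chi-square per gene at least 35.9). Of the members, KCNK18 was too low to test in amygdala. Members, lists and the level rule were chosen with earlier results of these data known. Named are every member called, or the 12 largest of each direction where more were, the 3 largest each way where none was, and a fixed set of which 17 are reported (some genes are counted but not reported by name here); members with an unadjusted p under 0.05, and any other named, were chosen after their values were seen. Sequences were not used here.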

Additional observations from a re-analysis of the deposited data

Results flagged for a closer look

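Among the members named in the HT comparisons, 80 groups of 7 libraries were checked for a library far from the rest. Dixon's ratio was used (gap over range on the log2 scale, at its 95% critical value), and 12 were found. For independent groups chance gives about 1 in 20. These groups share the same animals, and some members were named for their differences, so the 12 cannot be set against that rate. Of the 12, 6 were low libraries of OvH animal 32. In amygdala it was lowest for KCNA1 at 40.4 (next 203), KCNC2 at 1171 (next 3174), KCND2 at 295 (next 802) and KCNJ3 at 380.1 (next 1484), and in prefrontal cortex for KCNA2 at 99.4 (next 1471) and KCND3 at 221 (next 1211).

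In amygdala, HT animal 37 was lowest in its group for KCNG1 at 257 (next 527) and KCNJ4 at 439 (next 918), and OvH animal 31 was lowest in its group for KCNJ4 at 625 (next 1389). In hippocampus OvH animal 33 was highest for KCNJ13 at 1689 (next 82.2). In occipital cortex HT animal 40 was highest for KCNMB2, a beta subunit of BK channels, at 494 (next 320), and OvH animal 30 was lowest for KCNT2 at 57.1 (next 101).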

How the results depend on the processing

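The number of members called for HT in amygdala was 1 as reported and ranged from 0 to 14 with 1 animal left out. The calls over all rows then ranged from 3.4% to 14.6%. The number of members was 3 with equal totals (3.75%, and 10.1% of all rows) and 2 by DESeq2 (2.5%, and 10.9%). With the myelin covariate it was 0, beside 0.143% of all rows. Without animals 32 and 40 (chosen after seeing the data) it was 7 (8.75%, and 12.2% of all rows). By edgeR it was 1, KCNE2 (0.95, edgeR adjusted p = 0.0361), beside 6.31% of all rows. With the replicate block it was also 1, KCNE2 (1.07, limma adjusted p = 0.00825). For the amygdala effect minus that of the other regions it ranged from 0 to 6 with 1 animal left out, and was 3 with equal totals and 7 without animals 32 and 40. There 0% of all rows were called in the main fit, and 5.8% to 8.72% without animal 30, 31, 32, 39 or 40. Between hippocampus and prefrontal cortex 43 members were called, and 24 of 46 with a match within 1. Without the replicate block, regional counts were 38, 43 and 30, against 43, 44 and 35, and KCNK17 missed the threshold (adjusted p = 0.102). Where no share of all rows is given beside a count here, the count is not read as a result about the members.

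Some uncalled members changed sign. In amygdala, with equal totals KCNC1 was at -0.14, KCND2 -0.21, KCNH7 -0.21, KCNJ10 -0.21 and KCNMB4 -0.042; by edgeR KCNC1 -0.074, KCND2 -0.21, KCNH7 -0.11 and KCNJ10 -0.092; by DESeq2 KCNC1 -0.004, KCND2 -0.13, KCNH7 -0.029 and KCNJ10 -0.016; without animals 32 and 40 KCND2 -0.17 and KCNH7 -0.090. With the myelin covariate KCNAB2 was at 0.12, KCNC1 -0.066, KCND2 -0.075, KCNQ3 0.27, KCNJ10 -0.15, KCNMB4 -0.007 and KCNT1 0.11. With 1 animal left out the ranges were -0.17 to 0.017 (KCNAB2), -0.023 to 0.25 (KCNC1), -0.27 to 0.14 (KCND2), -0.082 to 0.070 (KCNH7), -0.073 to 0.042 (KCNJ10), -0.24 to 0.14 (KCNQ3) and -0.21 to 0.023 (KCNT1). In hippocampus KCNV1, KCNIP4 and KCNH7, at -0.60, -0.42 and -0.32 as reported, turned to 0.21, 0.26 and 0.058 with the myelin covariate and to 0.25, 0.40 and 0.10 without the libraries of animals 30 and 43. KCNJ13, at 0.72 in hippocampus as reported, ranged from -0.11 to 1.54 in hippocampus and from -0.009 to 1.47 for the amygdala effect minus the others with 1 animal left out; without animals 32 and 40 it was -0.35 in hippocampus and -0.11 over the mean of the 3 regions. The causes were not tested. At 7 animals a group, errors of 0.12 to 0.58 among the fixed amygdala members limit which differences can be seen.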

Other observations

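The 12 rows without a matching level were read in amygdala only. Their mean log2(value + 1) in the other 3 regions minus that in amygdala ran from -11.24 (KCNAB1) to 7.53 (KCNK5). In amygdala KCNAB1, KCNIP3 and KCNJ3 had mean levels of 11.5, 11.15 and 10.31 on that scale, and KCNK18, a spinal K2P channel, only 1.21.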
